A study of Mus musculus with 11 samples.

Results

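Kupffer cells (KCs), the resident macrophages (macs) of the liver sinusoids, are recognised by a small set of genes that they express and most other macs do not. Here 9 such genes, Clec4f, Timd4, Cd5l, Folr2, Vsig4, Cdh5, Pcolce2, Kcna2 and Il18bp, were followed through the 11 single-cell RNA sequencing libraries of a study of the transcription factor ZEB2. They were chosen as known KC genes with earlier results of these data known, and the study itself names Cdh5, Pcolce2, Kcna2 and Il18bp from comparisons of its own libraries. Each gene had its own row among the 27998 genes of every table. The comparisons asked how far each gene was restricted to liver macs, how far the 2 control liver libraries differed, and how the levels differed in macs from mice in which Zeb2 was targeted.

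Macs had been sorted from brain (microglia), colon (CMs), liver (KCs), lung (AMs) and spleen (SMs). In each tissue, 1 WT library was made from Zeb2fl/fl mice, whose Zeb2 alleles are loxP-flanked but which lack CRE, and 1 Zeb2KO library from mice that carry CRE on those alleles. The additional control, Nr1h3fl/fl WT KCs, had loxP-flanked Nr1h3 and also no CRE, so Zeb2 is intact in both control liver libraries. GEO's labels give the Zeb2KO genotype as Fcgr1-crexZeb2fl/fl in all tissues, whereas the study's methods name Clec4f-cre for the liver and Itgax-cre for the lung, and this was not settled here. By the study's account, deletion was often incomplete, with cells that kept a copy of Zeb2 in all organs but the brain. SiglecF- KCs were among these cells, and for colon and spleen the study calls them presumably heterozygous. Zeb2KO thus names the library here, and outside the brain its sums mix cells with and without the gene. Per the methods, the Clec4f-cre cassette sits in the 3′ untranslated region of Clec4f itself, so for a 3′ count of Clec4f the presence of such an allele and the loss of Zeb2 cannot be told apart. The mice were young adults of both sexes on a C57Bl/6 background with littermate controls, and the number of animals behind a library is not given in the labels. Per the methods, KCs of the Zeb2fl/fl WT and Zeb2KO mice were gated on Clec4F together with CD64, F4/80 and CD45, so a Clec4f protein signal was a condition for entering those libraries. The gate of the Nr1h3fl/fl WT library is not given in the sources used here. CMs and SMs were sorted as SiglecF-, and AMs as SiglecF+ and CD11c+. In colon and spleen the study reports higher Siglecf RNA in macs without Zeb2. Zeb2KO ratios of these tissues and of KCs thus come from unlike gates, and the part of the gate was not tested. With a single library for each tissue and genotype, a difference within a tissue could not be checked in replicates, and intervals on single values are exact Poisson 95% intervals that cover counting error only.

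Several of these genes encode surface proteins with which KCs take up material from the blood. Clec4f is a C-type lectin that binds terminal galactose and N-acetylgalactosamine. Timd4 (Tim-4) is a phosphatidylserine receptor that captures apoptotic cells and marks long-lived resident macs. Vsig4 (CRIg) is a complement receptor for C3b and iC3b that clears opsonised bacteria. Folr2 is a folate receptor. Cd5l (AIM) is a secreted scavenger-receptor cysteine-rich protein that also regulates lipid handling. Il18bp is the secreted decoy that neutralises interleukin-18. Cdh5 (VE-cadherin) is the adherens junction cadherin of endothelial cells. Pcolce2 enhances the processing of procollagen, and Kcna2 is a voltage-gated potassium channel subunit.

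With low-quality barcodes and clusters with listed markers of other cell types left out, 4043 WT, 3915 Zeb2KO and 3502 Nr1h3fl/fl WT KCs remained, and the other libraries held 2830 to 6974 macs. The cells counted as macs still held a small colon cluster led by the smooth muscle genes Tagln, Actg2 and Acta2 (39 WT and 30 Zeb2KO cells) and a spleen cluster led by B cell genes (197 and 139 cells). Without these 2 clusters, a choice made after seeing the data, no member's ratio in CMs or SMs moved by more than 0.07 on the log2 scale. Their unique molecular identifiers (UMIs) summed to between 8153522 (WT SMs) and 43299021 (WT CMs). Levels are UMIs summed over the macs of a library per 1000000 UMIs of those cells (CPM), and a log2 ratio compares 2 libraries after 1 CPM was added to both. At 20 CPM or more, the reach of a member's counting interval, averaged over its lower and upper side, was at most 9.19%. Pairs of libraries shared 14 to 76 cell barcodes, where random draws from the barcode whitelist give 14.7 to 68.8, and Zeb2KO KCs and Zeb2KO SMs shared 42 against 24.0. Zeb2 stood at 386 CPM in WT KCs, 513 CPM in Nr1h3fl/fl WT KCs and 775 CPM in Zeb2KO KCs, but the 3′ end that is counted remains in the recombined transcript, so this does not check the deletion. Cells left out as endothelial, B cell or hepatocyte clusters made up 6.59% of filtered WT, 11.9% of Zeb2KO and 4.91% of Nr1h3fl/fl WT liver cells.

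**Figure D1:**
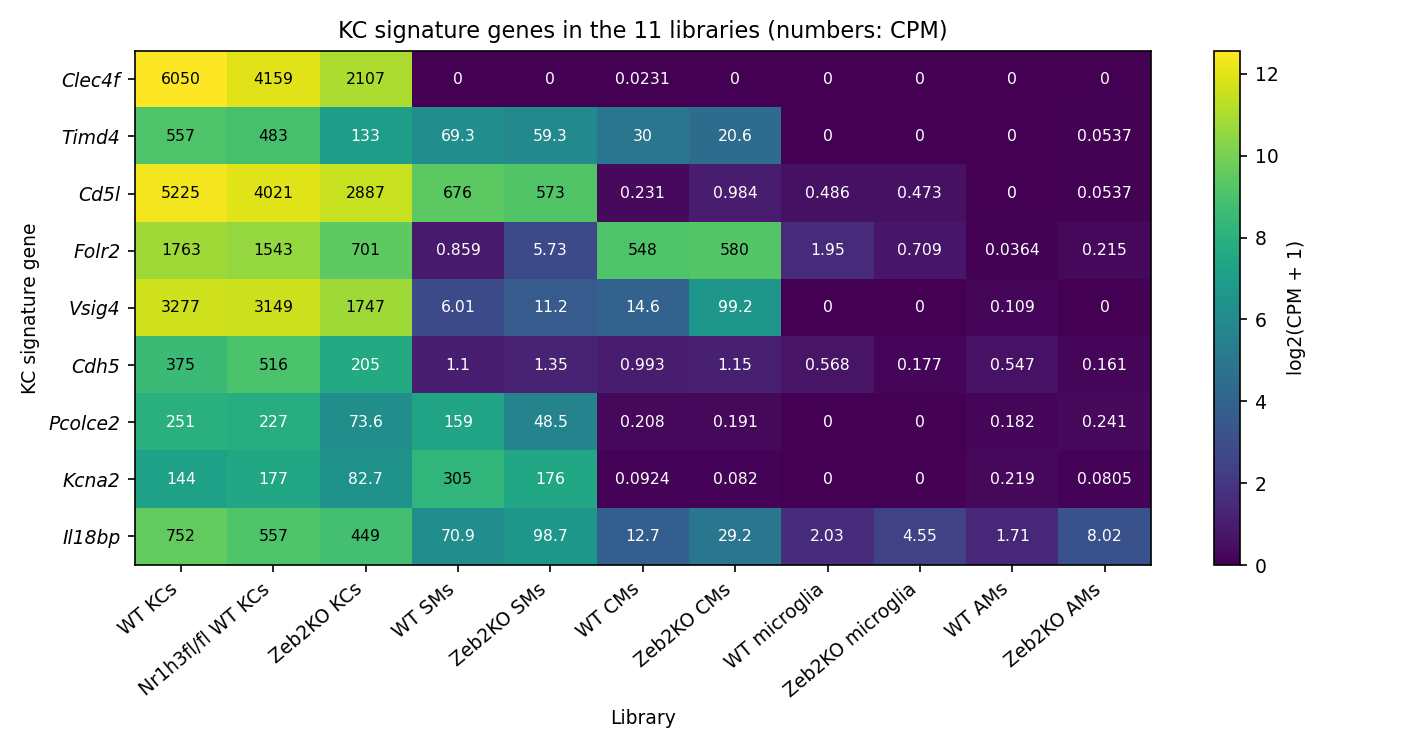
Level of the 9 KC signature genes (rows) in the 11 libraries (columns), with the CPM printed in each cell and the colour giving log2 of CPM + 1. The 3 liver libraries stand at the left, where Clec4f runs from 2107 to 6050.4 CPM, and Clec4f is at 0 in 7 of the 8 libraries outside the liver.

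Restriction to the liver differed widely within the set. Against the highest of the other 4 WT tissues, 6 of the 9 genes were at least 4-fold higher in WT KCs (Clec4f, Timd4, Cd5l, Vsig4, Cdh5 and Il18bp), where 1.27% of the 5033 genes of at least 20 CPM in WT KCs met the same rule. With the spleen left out of the comparison, 8 of 9 did, against 2.70% of all genes, and Folr2 was the exception. With the Nr1h3fl/fl WT KCs in place of the WT KCs, the same 6 genes passed, against 0.997% of 5316 genes. As the genes were picked as known KC genes, these counts describe the set and do not test it.

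Clec4f (chromosome 6: 83644542–83656187, minus strand, GRCm38/mm10) was the most restricted. It gave 147106 UMIs in WT KCs, a level of 6050.4 CPM (6020 to 6081), and a total of 1 UMI in the 33773 macs of the 8 libraries outside the liver. Against the WT libraries at 0, taking 3 counts as the floor of a library, its level in WT KCs was at least 16444-fold higher than in SMs, 24876.5-fold higher than in microglia and 55350.6-fold higher than in AMs. The single UMI lay in WT CMs (0.0231 CPM).

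Vsig4 (chromosome X: 96247203–96293438, minus strand) and Cdh5 (chromosome 8: 104101625–104144511, plus strand) were the next most restricted. Vsig4 was at 3277 CPM (3255 to 3300.1) in WT KCs, 14.6 CPM in WT CMs, 6.01 CPM in WT SMs, 0.109 CPM in WT AMs and 0 in WT microglia. Its ratio of KCs over CMs, the next tissue, was 7.71 on the log2 scale. Cdh5 was at 375 CPM (368 to 383) in WT KCs and at most 1.10 CPM in the other WT libraries. The intervals of Cdh5 in WT SMs, CMs, microglia and AMs overlapped between neighbours in that order, so no ranking among those 4 tissues could be made.

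Cd5l, Timd4 and Il18bp were also present in the spleen, at a lower level than in the liver. Cd5l (chromosome 3: 87357881–87371073, plus strand) was at 5225 CPM in WT KCs and 676 CPM (658 to 694) in WT SMs, 7.72-fold less, and was at or under 0.486 CPM in the other WT tissues. Timd4 (chromosome 11: 46810800–46844332, plus strand) was at 557 CPM (547 to 566) in WT KCs, 69.3 CPM (63.7 to 75.3) in WT SMs and 29.98 CPM (28.4 to 31.7) in WT CMs, and was not counted in WT microglia or AMs. Il18bp (chromosome 7: 102014885–102018690, minus strand) was at 752 CPM (741 to 763) in WT KCs, 70.9 CPM in WT SMs, 12.7 CPM in WT CMs, 2.03 CPM in WT microglia and 1.71 CPM in WT AMs, and the last 2 intervals overlapped. In no library was Il18bp lower than these 1.71 CPM.

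Folr2, Pcolce2 and Kcna2 were shared with a macrophage of another tissue. Folr2 (chromosome 7: 101839988–101857194, minus strand) was at 1763 CPM (1746 to 1779) in WT KCs and 548 CPM (541 to 555) in WT CMs, a 3.21-fold difference, and at 0.859 CPM in WT SMs. Pcolce2 (chromosome 9: 95637601–95698096, plus strand) was at 251 CPM (245 to 257) in WT KCs and 159 CPM (151 to 168) in WT SMs, a ratio of 0.65 on the log2 scale, and did not exceed 0.208 CPM in the other WT tissues. Kcna2 (chromosome 3: 107101146–107115005, plus strand) was the only member with a higher level in another WT tissue: WT SMs held 305 CPM (293 to 317) and WT KCs 144 CPM (140 to 149), a log2 ratio of -1.07 for KCs over SMs. Folr2 was thus shared with colon but not spleen, and Pcolce2 and Kcna2 with spleen but not colon.

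None of the 9 genes differed by 2-fold or more between Nr1h3fl/fl WT and Zeb2fl/fl WT KCs, where 1.35% of the 5550 genes considered did, so a count of 0 in 9 lies near that background. Log2 ratios of Nr1h3fl/fl WT over Zeb2fl/fl WT KCs ran from -0.54 (Clec4f) to 0.46 (Cdh5), with 7 genes lower and 2 higher. Vsig4 was the closest, at 3149 and 3277 CPM (-0.06). Timd4 (483 and 557 CPM), Folr2 (1543 and 1763 CPM) and Pcolce2 (227 and 251 CPM) had ratios of -0.20, -0.19 and -0.15. Clec4f (4159 and 6050.4 CPM), Il18bp (557 and 752 CPM, -0.43) and Cd5l (4021 and 5225 CPM, -0.38) were lower in the Nr1h3fl/fl library, and Cdh5 (516 and 375 CPM) and Kcna2 (177 and 144 CPM, 0.29) were higher. The counting intervals of all 9 ratios left out 0, so the libraries differed by more than counting error for each gene. The control cells also lay in different clusters, as cluster 0 held 52.0% of filtered WT and 3.77% of Nr1h3fl/fl WT liver cells, while clusters 1 and 3 held 9.96% and 4.48% of the former and 39.1% and 36.6% of the latter.

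**Figure D2:**
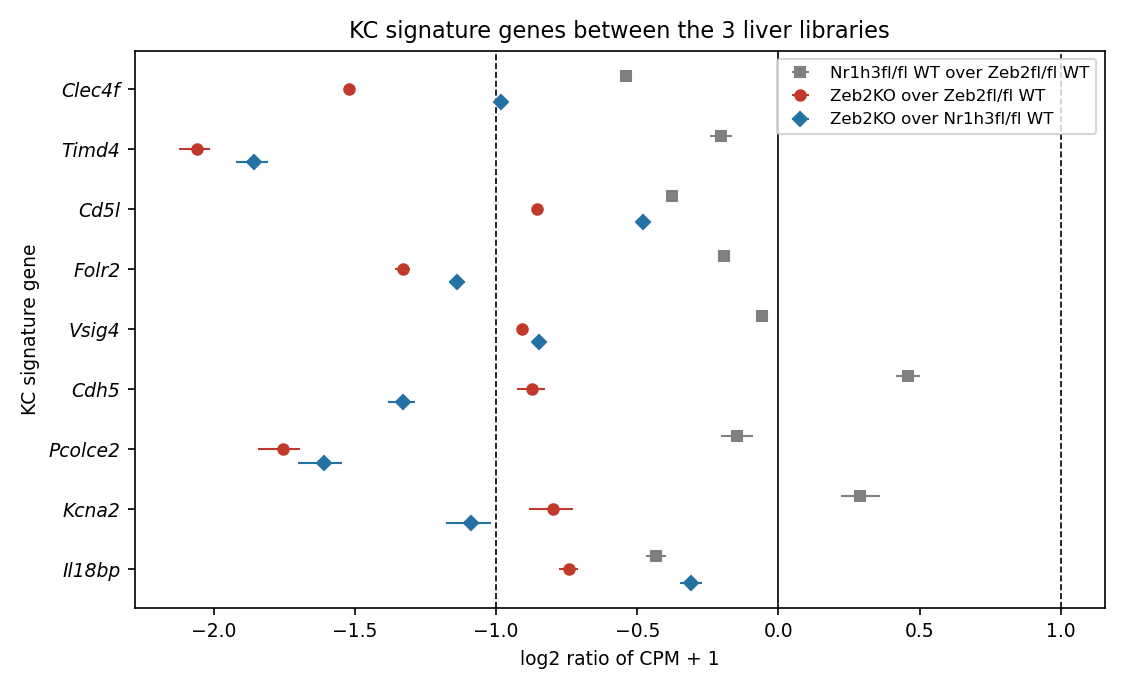
Log2 ratio of CPM + 1 between the 3 liver libraries for each KC signature gene: grey squares compare the control libraries, red circles Zeb2KO with Zeb2fl/fl WT KCs, and blue diamonds Zeb2KO with Nr1h3fl/fl WT KCs. Horizontal lines are counting intervals and dashed lines mark 2-fold; all red and blue points lie left of 0, and no grey point lies beyond a dashed line.

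In Zeb2KO KCs, all 9 genes were lower than in either control library. Timd4, Pcolce2 and Folr2 were at least 2-fold lower than in both controls, as were 0.898% of the 5345 genes considered against both (2.75% were higher than in both). Clec4f passed 2-fold against the Zeb2fl/fl WT KCs only, and Cdh5 and Kcna2 against the Nr1h3fl/fl WT KCs only. Cd5l, Vsig4 and Il18bp did not pass against either. This made 4 of 9 genes lower against Zeb2fl/fl WT KCs, where 1.15% of 5392 genes were lower by that rule (3.38% were higher), and 5 of 9 against Nr1h3fl/fl WT KCs, where 3.90% of 5747 genes were lower (4.19% were higher). No member was 2-fold higher in either comparison. Since the genes were chosen with earlier results known, and partly from the study's own calls, these counts describe the set and do not test it. The median log2 ratio of the 9 genes was -0.91 against Zeb2fl/fl WT and -1.09 against Nr1h3fl/fl WT KCs, with medians of 0.02 and -0.05 over all genes considered. The comparisons share the Zeb2KO library, so they are not independent of each other. As in bulk samples, a summed level cannot tell fewer cells with a gene from less RNA per cell. Shares of cells are given further on, and for genes of low level they do not tell these apart either.

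Among the receptors, Timd4 differed most. It was at 557 CPM in WT KCs, 483 CPM in Nr1h3fl/fl WT KCs and 133 CPM (128 to 137) in Zeb2KO KCs, so it was 4.17-fold and 3.62-fold lower than in the controls (log2 ratios of -2.06 and -1.86). Folr2 was at 1763, 1543 and 701 CPM (690 to 711) in the same order, with ratios of -1.33 and -1.14. Clec4f was at 6050.4, 4159 and 2107 CPM (2089 to 2124), with ratios of -1.52 and -0.98, the latter just short of 2-fold, and the difference between the controls alone was 0.54. Vsig4 was at 3277, 3149 and 1747 CPM (1731 to 1764), short of 2-fold against both with ratios of -0.91 and -0.85. For these 4 receptors the Zeb2KO level lay below both controls, and each of the ratios exceeded the ratio between the controls in size.

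Of the secreted proteins, Pcolce2 was at 251 CPM in WT KCs, 227 CPM in Nr1h3fl/fl WT KCs and 73.6 CPM (70.4 to 77.0) in Zeb2KO KCs, with ratios of -1.76 and -1.61. Cd5l was at 5225, 4021 and 2887 CPM (2866 to 2908), and its ratios of -0.86 and -0.48 stood beside -0.38 between the controls. Il18bp was at 752, 557 and 449 CPM (441 to 457), with ratios of -0.74 and -0.31. The ratio of Il18bp against Nr1h3fl/fl WT KCs was smaller in size than the ratio between the controls (-0.43), which held for no other member or comparison.

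The channel Kcna2 was at 144 CPM in WT KCs, 177 CPM in Nr1h3fl/fl WT KCs and 82.7 CPM (79.2 to 86.3) in Zeb2KO KCs (-0.80 and -1.09). The cadherin Cdh5 was at 375, 516 and 205 CPM (199 to 210.3) in the same order (-0.87 and -1.33). Since Cdh5 is also an endothelial gene, the 11 endothelial markers were summed in the same cells and came to 201 CPM in WT, 195 CPM in Nr1h3fl/fl WT and 201 CPM in Zeb2KO KCs, with none of them at 0. Behind these like sums, 9 of the 11 markers were higher in Zeb2KO KCs than in both controls, among them Kdr (11.6, 8.90 and 18.7 CPM in the order WT, Nr1h3fl/fl WT and Zeb2KO) and Clec4g (38.0, 16.8 and 61.3 CPM). Stab2 was lower than in both (81.8, 102 and 31.5 CPM), and Pecam1 lay between them (30.6, 43.1 and 32.2 CPM). A kept cluster with raised Kdr and Ptprb (cluster 10, with 152 WT, 56 Nr1h3fl/fl WT and 91 Zeb2KO cells) held little of the signal, as Cdh5 was at 375, 517 and 201 CPM without it. The part of endothelial RNA in the Cdh5 ratios was not tested further.

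The genes that were at least 2-fold lower against both controls are shown here by the 250 bases before their RefSeq start sites (GRCm38.p6, 5′ to 3′ on the gene's strand), since they are the ones called against both. Capitals mark CACCTG or its reverse complement CAGGTG, an E-box of the kind that ZEB proteins bind, and AGGTCA or its reverse complement TGACCT, a half-site of nuclear receptors such as LXRα, the product of Nr1h3. Timd4 lies at chr11:46810549-46810798 (plus strand), Pcolce2 at chr9:95637378-95637627 (plus strand), and Folr2 (minus strand) has 2 RefSeq starts, with windows at chr7:101857191-101857440 (upstream start) and chr7:101845332-101845581 (downstream start).
Timd4: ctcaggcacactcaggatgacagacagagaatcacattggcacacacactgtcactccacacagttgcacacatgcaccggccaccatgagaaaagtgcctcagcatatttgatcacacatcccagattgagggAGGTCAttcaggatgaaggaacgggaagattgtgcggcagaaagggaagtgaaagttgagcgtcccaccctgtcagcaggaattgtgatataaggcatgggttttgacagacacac
Pcolce2: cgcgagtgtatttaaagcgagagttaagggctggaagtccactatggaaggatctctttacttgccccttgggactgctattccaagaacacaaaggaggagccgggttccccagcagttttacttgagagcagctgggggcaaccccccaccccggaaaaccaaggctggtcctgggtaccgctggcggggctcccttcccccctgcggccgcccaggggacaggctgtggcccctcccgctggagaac
Folr2 upstream start: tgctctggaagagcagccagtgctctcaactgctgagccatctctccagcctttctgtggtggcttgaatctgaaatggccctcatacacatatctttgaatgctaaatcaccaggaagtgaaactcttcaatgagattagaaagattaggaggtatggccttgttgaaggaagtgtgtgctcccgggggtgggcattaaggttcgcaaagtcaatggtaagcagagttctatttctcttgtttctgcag
Folr2 downstream start: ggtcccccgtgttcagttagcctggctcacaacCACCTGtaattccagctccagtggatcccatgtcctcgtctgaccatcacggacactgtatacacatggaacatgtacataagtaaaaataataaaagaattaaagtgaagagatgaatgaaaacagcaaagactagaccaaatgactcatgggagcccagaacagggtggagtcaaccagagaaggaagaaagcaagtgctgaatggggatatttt

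The E-box began 217 bases before the downstream start of Folr2 and the half-site 116 bases before the start of Timd4, and the Pcolce2 window held neither motif. Over the 9 windows of the 8 members found in the RefSeq promoter set used here, 2 held the E-box and 2 the half-site. That set gave no window for Cdh5. The other E-box began 15 bases before the start of Kcna2, and the other half-site 22 bases before that of Clec4f. Of all 32851 promoter windows of the same length, 17.2% held the E-box and 14% the half-site, searched on both strands. A match of letters is no measurement of binding.

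The share of cells with a UMI of each gene is given beside the sums. At a fixed depth, the share of a gene of low level follows closely from its summed level. Such shares are therefore not separate evidence of a lower level. To compare shares across depths, each cell was thinned to 1500 UMIs. All KCs reached that depth, as did 2378 of the 3211 WT SMs, 2455 of the 2996 Zeb2KO SMs and 6946 of the 6974 WT AMs. A Timd4 UMI was found in 53.6% of WT, 50.4% of Nr1h3fl/fl WT and 15.8% of Zeb2KO KCs (87.2%, 82.2% and 33.2% before thinning). For Pcolce2 the thinned shares were 29.7%, 27.8% and 10.3%, and for Folr2 86.8%, 83.5% and 51.3%. For Clec4f they were 98.2%, 99.2% and 89.0%, for Cd5l 99.0%, 98.7% and 87.7%, and for Vsig4 96.6%, 97.6% and 72.7%. Cdh5 was found in 43.5%, 54.3% and 25.7%, Il18bp in 63.1%, 51.1% and 43.2%, and Kcna2 in 19.7%, 23.4% and 11.7%. The share was lower in Zeb2KO KCs than in both controls for each of the 9 genes. Clec4f, Cd5l, Vsig4 and, at 51.3%, Folr2 were thus counted in most Zeb2KO KCs, and the other members in a minority. Pcolce2, Kcna2 and Cdh5 were found in a minority of WT KCs too, and Timd4 in only 53.6% of them. Which genes fall below most cells therefore depends on their level in WT KCs as well.

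Free RNA in the droplets sets a limit to such shares, and no liver cluster that could serve as a clean background was found, since cells of the left-out B cell cluster had a Clec4f UMI in 78.3% of WT cells and 54.2% of Zeb2KO cells after thinning. Those cells came from libraries sorted with the Clec4F gate. Of the WT clusters, the lowest share with a Clec4f UMI was in 65 kept cells led by Slpi, Fn1, Saa3 and Alox15 (cluster 13), at 27.7% after thinning. In the same cells 21.5% had Folr2, 40% Vsig4, 4.62% Cdh5 and 4.62% Il18bp, while 86.2% had Cd5l and 52.3% Timd4. These cells were deeper than the rest, at a median of 13579 UMIs against 5367 for all WT KCs.

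**Figure D3:**
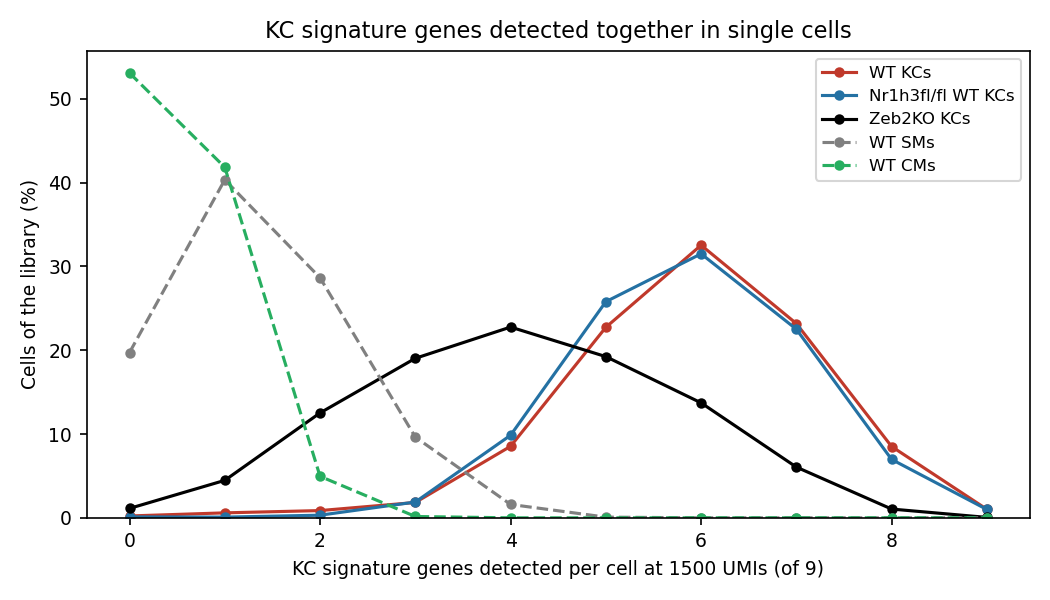
Share of the macs of a library (y axis, percent) in which 0 to 9 of the KC signature genes (x axis) had a UMI after each cell was thinned to 1500 UMIs. The 2 control liver libraries peak at 6 genes and lie on each other, Zeb2KO KCs peak at 4, WT SMs at 1 and WT CMs at 0.

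Counted together, a median of 6 of the 9 genes was detected per cell at 1500 UMIs in each control liver library and 4 in Zeb2KO KCs, with means of 5.90, 5.86 and 4.07. At least 3 genes were found in 98.3% of WT, 99.5% of Nr1h3fl/fl WT and 81.9% of Zeb2KO KCs. The same held for 11.3% of WT SMs, 5.05% of Zeb2KO SMs, 0.160% of WT CMs and 0.824% of Zeb2KO CMs, and no microglial cell or AM had more than 1 of the genes. In the mean number of signature genes per cell, Zeb2KO KCs lay between the control KCs and the macs of other tissues. The genes were picked as KC genes and all 9 sums were lower in Zeb2KO KCs. This place thus follows largely from the sums, averages unlike clusters and is no test.

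The levels differed between the clusters of the Zeb2KO KCs. The clustering had left the 9 genes out, though genes that vary with them entered it, so the cluster values are descriptions. Clusters 2, 8 and 14 held 42.2%, 10.9% and 2.32% of filtered Zeb2KO liver cells and at most 0.624% of either control, and the remaining 1452 Zeb2KO KCs lay in clusters shared with the controls. Cluster 2, led by Siglecf, Ddit4 and Pglyrp1, had the lowest Timd4 (54.7 CPM) and Folr2 (350 CPM) of the 9 Zeb2KO clusters with at least 50 cells, with Il18bp at 351 CPM, Cd5l at 1603 CPM, Vsig4 at 1367 CPM, Cdh5 at 108 CPM and Pcolce2 at 29.3 CPM. Cluster 8, led by Cd209f, Cd209g and Trem2, was close to WT KCs for most members: Cd5l was at 4762 CPM, Vsig4 at 3391 CPM, Folr2 at 1396 CPM, Cdh5 at 409 CPM, Timd4 at 395 CPM and Pcolce2 at 207 CPM. Kcna2 there was at 225 CPM, above the 144 CPM of WT KCs. Both clusters were almost confined to the Zeb2KO library, yet they held the lowest and the highest Timd4 level of the 9 Zeb2KO clusters. Over all WT KCs, the log2 ratios of the 9 members in cluster 2 ran from -3.32 (Timd4) to -1.10 (Il18bp). Cd5l was at -1.70 and Vsig4 at -1.26 there. In cluster 11, which was shared with the controls, the ratios ran from -2.96 (Pcolce2) to -1.54 (Cdh5). By the study's account, SiglecF+ KCs had deleted Zeb2.

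Clec4f varied less between Zeb2KO clusters than Timd4 did. Its log2 ratios over all WT KCs ran from -2.78 (cluster 11) to -0.91 (cluster 0), and those of Timd4 from -3.32 to -0.49. Clec4f was at 1960 CPM in cluster 2 and 3100.1 CPM in cluster 8. Both levels lay below the 6050.4 CPM of all WT KCs and the 4159 CPM of Nr1h3fl/fl WT KCs. In clusters 0 and 4 of the Zeb2KO library, Cd5l (5253 and 4863 CPM), Vsig4 (3120 and 3736 CPM) and Il18bp (744 and 739 CPM) were close to the 5225, 3277 and 752 CPM of WT KCs. Clec4f was at 3228 and 2858 CPM there, with log2 ratios of -0.91 and -1.08 over all WT KCs. Other members were lower there too, as Timd4 had ratios of -1.24 and -0.72 and Pcolce2 of -0.44 and -0.94. Kcna2 had 0.09 and -2.06. Whether the targeting allele had a part in the Clec4f level was not tested.

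**Figure D4:**
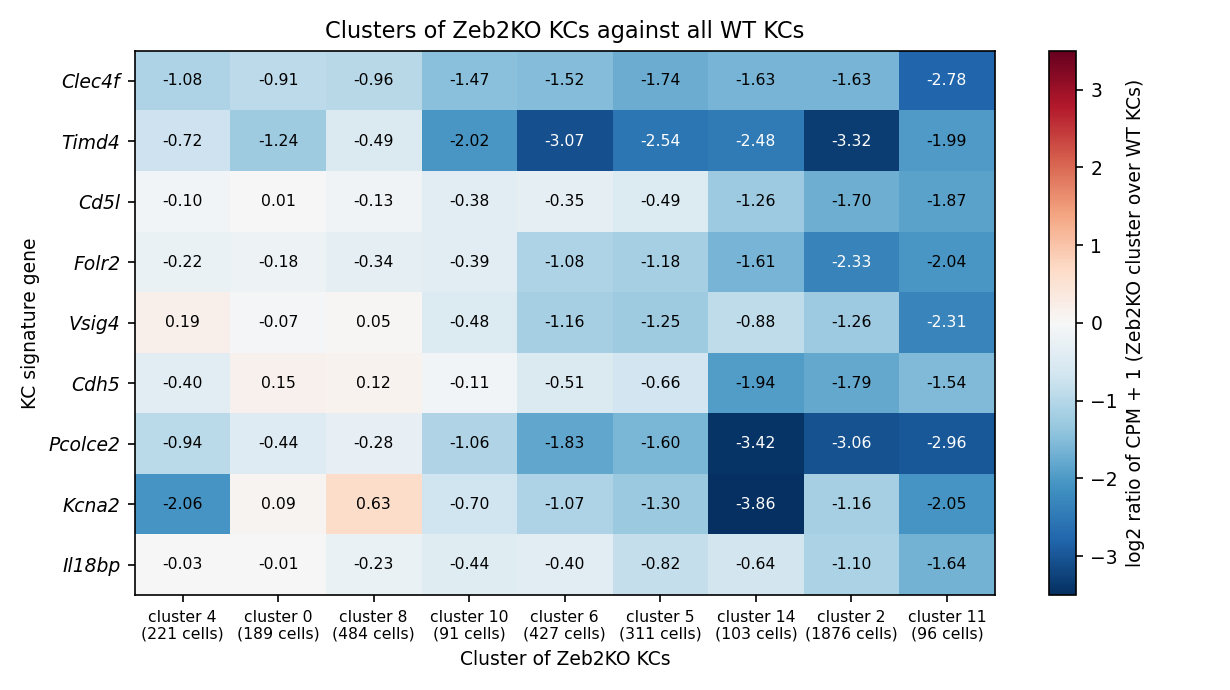
Log2 ratio of CPM + 1 of each KC signature gene (rows) in the clusters of Zeb2KO KCs (columns, with their cell numbers) over the whole WT KC library; blue is lower and red higher. Timd4 reaches -3.32 in cluster 2 and -0.49 in cluster 8. Clec4f, Timd4, Folr2, Pcolce2 and Il18bp are lower in all 9 clusters shown, though Il18bp is only at -0.01 in cluster 0.

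Within clusters that held at least 50 cells of both the Zeb2KO and the WT library, 6 in all, Clec4f, Timd4, Folr2, Pcolce2 and Vsig4 were lower in Zeb2KO cells in 6 of 6. Timd4 and Clec4f were each at least 2-fold lower in 5 of them and Pcolce2 in 4. In cluster 0, which held most WT KCs, Timd4 was at 235 CPM in Zeb2KO and 583 CPM in WT cells. Cluster 6 had Cx3cr1, Ccr2 and Cd207 but also the proliferation markers Ccnb2 and Birc5 among its leading genes. It held 9.60% of Zeb2KO against 1.41% of WT cells, and Timd4 there was at 65.4 and 226 CPM. Cdh5, Cd5l, Il18bp and Kcna2 did not go 1 way: Cdh5 was lower in 4 of the 6 clusters and Cd5l, Il18bp and Kcna2 in 5. Clusters 1 and 3, with most of the Nr1h3fl/fl WT cells, had 48 and 27 Zeb2KO cells and were not compared. Against Nr1h3fl/fl WT cells in 6 matched clusters, Timd4, Clec4f, Folr2, Pcolce2, Cdh5 and Kcna2 were lower in 6 of 6. Vsig4 was lower in 5, and Il18bp and Cd5l were higher in 5. For Cd5l these include cluster 5, where the levels were practically the same (3731.5 CPM in Zeb2KO and 3731.2 CPM in Nr1h3fl/fl WT cells). Counts of Ccr2, a monocyte gene, were 9.13 CPM in WT, 4.64 CPM in Nr1h3fl/fl WT and 62.4 CPM in Zeb2KO KCs, while the 6 monocyte markers summed to 596, 621 and 495 CPM. Plac8 alone made up 581, 613 and 426 CPM of these sums. The 6 proliferation markers summed to 84.2 CPM in WT, 126 CPM in Nr1h3fl/fl WT and 266 CPM in Zeb2KO KCs. The part of newly recruited or dividing cells in the levels was not tested.

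When the 3 clusters almost confined to Zeb2KO cells were left out, Timd4 in the other Zeb2KO KCs was 154 CPM, Pcolce2 90.9 CPM, Clec4f 2025 CPM and Kcna2 70.5 CPM, and these 4 genes were at least 2-fold below both controls, as were 0.577% of the 5369 genes considered (0.684% against Zeb2fl/fl WT and 3.79% against Nr1h3fl/fl WT KCs taken singly). Folr2 was at 917 CPM there and did not pass 2-fold against either, and Cd5l, at 3856 CPM, had ratios of -0.44 and -0.06. The clusters left out include cluster 8, which was close to WT KCs for most members, so this split does not separate cells by the state of Zeb2. Among Zeb2KO KCs with a Siglecf UMI (1726 cells), Timd4 was at 68.3 CPM and Folr2 at 409 CPM, against 189 and 956 CPM in the 2189 cells without one, and Clec4f was at 1979 and 2218 CPM.

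Outside the liver, 4 members reached 20 CPM in either library of the colon pair and 5 in either of the spleen pair, and none did in brain or lung. One was at least 2-fold lower in Zeb2KO macs, Pcolce2 in spleen, where 0.859% of 6171 genes were lower and 2.33% higher. In colon, 2 were at least 2-fold higher, Vsig4 and Il18bp, where 1.07% of 5138 genes were higher and 0.487% lower.

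In SMs, Pcolce2 was at 159 CPM (151 to 168) in WT and 48.5 CPM (44.2 to 53.1) in Zeb2KO macs, a log2 ratio of -1.69, with -1.76 in KCs. Kcna2 was at 305 and 176 CPM (167 to 184), a ratio of -0.79, with -0.80 in KCs. Cd5l was at 676 and 573 CPM (-0.24), Timd4 at 69.3 and 59.3 CPM (-0.22) and Il18bp at 70.9 and 98.7 CPM (0.47). Pcolce2 was lower by 2-fold or more in 4 of the 4 spleen clusters with at least 50 cells of both libraries, at 32.5 to 69.1 CPM in Zeb2KO and 120 to 161 CPM in WT cells, and Kcna2 was lower in 4 of 4, by less than 2-fold. One of these clusters had the B cell genes Fcer2a and Pax5 among its leading genes. Timd4 was higher in 3 of the 4 and Cd5l lower in 3. A cluster with 19.7% of filtered Zeb2KO spleen cells and under 50 WT cells (cluster 5, led by Skint3, Dpep2 and Itgam) held the lowest Pcolce2, 12.5 CPM, and the lowest Cd5l, 130 CPM. Folr2, at 7 UMIs in WT and 55 UMIs in Zeb2KO SMs, stayed under 20 CPM. Against Nr1h3fl/fl WT KCs the liver ratios were -1.61 for Pcolce2, -1.09 for Kcna2, -1.86 for Timd4 and -0.48 for Cd5l, so the closeness of Kcna2 in the 2 tissues depended on the control. The difference between the tissues was not tested.

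In CMs, Vsig4 was at 14.6 CPM (13.5 to 15.8) in WT and 99.2 CPM (96.0 to 102) in Zeb2KO macs, 6.40-fold higher (log2 ratio of 2.68), opposite in direction to its ratio of -0.91 in KCs. After thinning, 1.62% of WT and 10.9% of Zeb2KO CMs had a Vsig4 UMI, and the thinned share in WT AMs, which had 3 Vsig4 UMIs in all, was 0.0144%. Vsig4 was at least 4-fold higher in Zeb2KO cells in each of 7 colon clusters with at least 50 cells of both libraries. These leave out cluster 6, led by Ltb and Ms4a1, with 772 Zeb2KO cells (18.9% of the filtered library) and 36 WT cells. The study identified colon macs without Zeb2 by markers that include Ms4a1, so the matched clusters may hold few such cells. The highest level was in cluster 5, led by Retnla, Lyve1 and S100a4, with 303 CPM in Zeb2KO and 74.5 CPM in WT cells. Il18bp was at 12.7 CPM (11.6 to 13.8) and 29.2 CPM (27.5 to 31.0), 2.21-fold higher, and was higher in 7 of 7 clusters. Folr2 was at 548 and 580 CPM (0.08), and Timd4 at 29.98 and 20.6 CPM (-0.52). The folate receptor thus did not follow its liver ratio of -1.33 in colon. CMs were gated as SiglecF- and KCs were not, and the difference between the tissues was not tested.

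**Figure D5:**
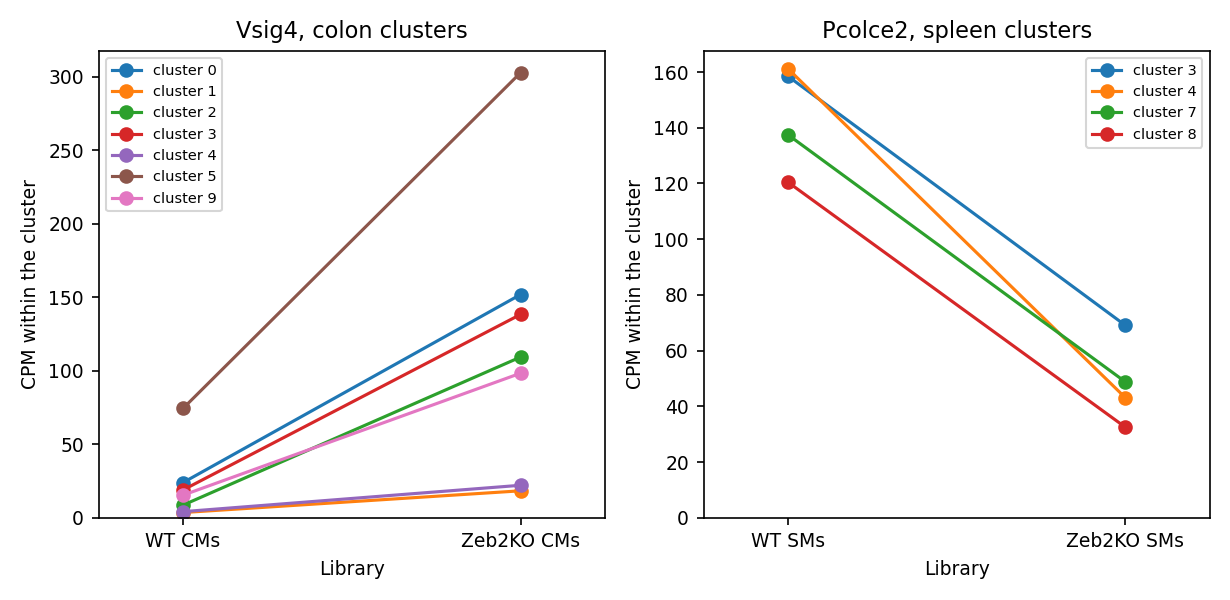
Level (CPM within the cluster) of Vsig4 in colon clusters and of Pcolce2 in spleen clusters, with a line from the WT to the Zeb2KO cells of each cluster that held at least 50 cells of both. All 7 Vsig4 lines rise and all 4 Pcolce2 lines fall.

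Il18bp was above WT in the Zeb2KO library of the other 4 tissues and below it in KCs. In microglia it was at 2.03 CPM (25 UMIs) in WT and 4.55 CPM (77 UMIs) in Zeb2KO macs, and in AMs at 1.71 CPM (47 UMIs) and 8.02 CPM (299 UMIs), so both lay under the 20 CPM limit. None of the other 8 members exceeded 1.95 CPM in any microglia or AM library.

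Whether any gene shifted in the same way across tissues was tested with edgeR's quasi-likelihood test, in which the 5 WT and Zeb2KO pairs served as replicates and tissue was a covariate. Of 12172 genes tested, 0 (0%) passed an adjusted p of 0.05, with 1448 at an unadjusted p under 0.05, and DESeq2 with the same design called 352 of the 12920 genes it tested (2.72%). In all, 6 members passed the filter on low counts, and Clec4f, Pcolce2 and Kcna2 did not. The filter asks for counts in several libraries. Clec4f was nearly absent outside the liver, and Pcolce2 and Kcna2 outside liver and spleen. Of the 6 members tested, only Il18bp had more than 24 UMIs in any microglia or AM library. Brain and lung thus gave few counts to the other values, though 5 pairs entered the fit. Timd4 had a log2 fold change of -0.89 ± 0.45 (SE, 5 pairs; edgeR adjusted p = 0.493) and Il18bp of 0.87 ± 0.45 (edgeR adjusted p = 0.493), and Vsig4 had 0.72 ± 0.81 (edgeR adjusted p = 0.727). Cdh5 was at -0.57 ± 0.29 (edgeR adjusted p = 0.483), Cd5l at 0.09 ± 0.46 and Folr2 at -0.02 ± 0.69 (edgeR adjusted p = 0.949 and 0.994). With DESeq2, Vsig4 was at 0.0095 ± 1.10 and Folr2 at 0.25 ± 0.58 (SE, 5 pairs; adjusted p = 0.999 and 0.939), so the size of the Vsig4 value and the sign of the Folr2 value depended on the tool. DESeq2 tested all 9 and called Kcna2 alone, at -0.81 ± 0.24 (SE, adjusted p = 0.0271), where the libraries outside liver and spleen held at most 6 Kcna2 UMIs.

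Other genes known for KCs were read beside the set. Of 30 such genes, 28 could be considered against both controls, and 4 were at least 2-fold lower and 1 higher against both, beside the 0.898% and 2.75% of all genes. Against Zeb2fl/fl WT KCs alone 4 were lower and 1 higher, and against Nr1h3fl/fl WT KCs alone 6 were lower and 2 higher, with medians of -0.32 and -0.49. The lower ones were Cd163, the haptoglobin-haemoglobin receptor (328 CPM in WT, 481 CPM in Nr1h3fl/fl WT and 53.3 CPM in Zeb2KO KCs), Apoc1, an apolipoprotein (5756, 5120.2 and 1259 CPM), the complement component C6 (494, 581 and 117 CPM) and Xlr (108, 97.7 and 37.9 CPM). Id1, an inhibitor of basic helix-loop-helix factors, was higher (115, 81.3 and 389 CPM). Its relative Id3 was at 912, 793 and 1765 CPM, 2-fold higher against the Nr1h3fl/fl library only. Among the other transcription factors of the list, Nr1h3 was at 391, 475 and 270 CPM and Spic, the factor of red pulp and iron-handling macs, at 92.8, 111 and 109 CPM. The values of Id3, Nr1h3 and Spic were chosen after they were seen. Members of the set were therefore not the only KC genes with lower levels, and most of the KC genes on this list stayed within 2-fold. By the study's account, Cd163, Apoc1, C6 and Xlr, like the member Timd4, differ between monocyte-derived and embryonic KCs. It set such genes aside as related to origin, and in its chimeras KCs of Clec4f-crexZeb2fl/fl mice were partly replaced from bone marrow. Marco, which it also names there, was called against neither control. The part of cell origin in these levels was not tested.

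Most partners of the 9 proteins were under 20 CPM in these cells. Of 43 partner genes, 14 could be considered against both controls, and none was called in the same direction against both. Il18, the cytokine that Il18bp binds, was at 115 CPM in WT, 117 CPM in Nr1h3fl/fl WT and 117 CPM in Zeb2KO KCs, and its receptor genes Il18r1 and Il18rap were at or under 0.165 CPM. Of the cadherin partners, the catenin genes Ctnnb1 (80.3, 115 and 69.8 CPM) and Ctnnd1 (116, 174 and 72.5 CPM) were present, and Ctnnd1 was 2-fold lower against the Nr1h3fl/fl library only. Cfb, of the alternative complement pathway on which Vsig4 acts, was 2-fold lower against Zeb2fl/fl WT KCs only (51.7, 29.7 and 21.3 CPM). The apoptotic cell receptors Mertk (178, 265 and 171 CPM) and Axl (541, 769 and 404 CPM) were called against neither, and the partner genes given here were chosen after their values were seen. All 7 other channel genes examined beside Kcna2 were under 20 CPM.

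Of 4965 other genes of at least 50 CPM in any library, those whose pattern over the 11 libraries was most like the mean of the 9 members were Klrk1, Tbc1d1, Dhrs1, Bach2os, Irf7, Ddx60, Gm4955, Dmpk, Gm4951 and Pydc4, with Pearson's r of 0.951 to 0.978 on the log2 scale. These correlations describe 11 libraries that share tissues. Klrk1, which encodes the receptor NKG2D, was at 85.1 CPM in WT, 54.6 CPM in Nr1h3fl/fl WT and 48.0 CPM in Zeb2KO KCs. Irf7, an interferon regulatory factor, was at 571, 519 and 451 CPM. Of the members themselves, Il18bp was most like the mean of the other 8 (r = 0.977) and Folr2 least (r = 0.693), again over 11 libraries.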

How the data were processed

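The authors deposited raw UMI counts per gene and cell barcode for each of the 11 libraries, made from 10x Genomics 3′ libraries with Cell Ranger, with alignment by STAR to mm10. These values carry no normalization, and the libraries held 11133411 to 47400786 UMIs. KC and AM libraries were run on a NextSeq 500 and the others on a HiSeq instrument, so instrument and tissue cannot be told apart where KCs are set against brain, colon or spleen macs, while KCs and AMs shared an instrument.

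Barcodes far from the median of their library in depth, genes or mitochondrial share (3 median absolute deviations) were removed, 4.66% to 9.22% per library. Cells of each tissue were clustered with scanpy 1.11.5 (2000 variable genes without the 9 members, 30 principal components, 15 neighbours, Leiden resolution of 0.8), and clusters that carried the listed markers of another cell type were left out, up to 22.5% of a library (WT SMs). Clusters led by other cells' genes were kept where those markers did not meet the rule: colon cluster 12 (smooth muscle genes, 39 WT and 30 Zeb2KO cells), spleen cluster 8 (B cell genes, 197 and 139 cells) and liver cluster 10. A doublet caller marked at most 0.0566% of cells, which does not show that doublets were this rare, and its marks were not used. As an alternative, the cells with the highest doublet scores of each library were left out. UMIs were summed per library and given as CPM. A gene was considered in a comparison if either library held 20 CPM or more of it, a difference was called at 2-fold on the CPM + 1 scale, and fold changes of low genes are understated on that scale. No test was possible within a tissue. The shift common to the 5 tissues was fitted with edgeR 4.0.16 (quasi-likelihood, TMM factors, Benjamini-Hochberg adjustment), with DESeq2 1.42.0 as an alternative. The edgeR step was also run on simulated counts, with a single spread for all genes and the same shift in every tissue. It recovered 78 of 100 genes changed 2-fold and 97 of 100 changed 4-fold, with 9 false calls. That setting is simpler than these data, so it does not show what edgeR could find in them. Promoters came from RefSeq tables and positions from the mm10 annotation.

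The members and the gene lists were chosen with earlier results of these data known. All 9 members were named. Of the other KC genes and partners, up to 3 per list and direction were named if called against both controls, and the 10 genes with the highest Pearson's r with the members' mean profile were given. Nr1h3-deficient KCs of the study were not analysed here.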

Additional observations from a re-analysis of the deposited data

Results flagged for a closer look

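Vsig4 was higher in Zeb2KO than in WT CMs, with a log2 ratio of 2.679, and lower in Zeb2KO than in WT KCs, with a ratio of -0.91. For Il18bp the log2 ratio was 1.144 in colon and -0.74 in liver. Both were marked because the single pair of libraries in colon moved one way and the pair in liver the other, and the difference between the tissues was not tested.

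Cdh5 was at 364.3 CPM in the endothelial cluster that was left out of the Zeb2KO liver library (380 cells), against 205 CPM in the Zeb2KO KCs that were kept. It was marked as a signal in cells left out of the main comparisons. With no cluster left out, the Cdh5 ratio of Zeb2KO over WT KCs was -0.77 in place of -0.87. In the same left-out cluster of the WT library (109 cells) Cdh5 was at 520 CPM.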

How the results depend on the processing

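The counts of members at least 2-fold lower were 4 against Zeb2fl/fl WT KCs and 5 against Nr1h3fl/fl WT KCs. With a 1.5-fold threshold they were 9 and 7, and the count in the other tissues was 2 (Pcolce2 and Kcna2 in SMs) in place of 1. At that threshold 4.08% and 16.3% of all genes considered were lower in Zeb2KO KCs and 3.44% in Zeb2KO SMs. Clec4f joined the count against Nr1h3fl/fl WT KCs (6) with no cluster left out and with all deposited barcodes, and Folr2 left it (4) when cells were weighted equally. The median of the members against Zeb2fl/fl WT KCs stayed between -0.96 and -0.89 under the alternatives run, and no member's ratio between liver libraries changed sign. An alternative added after seeing the data, without the clusters almost confined to Zeb2KO cells, gave 4 and 4 genes, where 0.684% and 3.79% of all genes were lower. For the shift common to the tissues, where edgeR called 0 genes, DESeq2 called 352 of 12920 and edgeR without a filter on low counts 3, and the cause was not tested. Leaving out 1 tissue pair at a time gave 0 to 1 gene, the 1 gene without the spleen pair. Depth sets the counting intervals, and the spread between replicates within a tissue is not known. Without tissue as a covariate, edgeR also called 0 genes, with 97 at an unadjusted p under 0.05 against 1448 with it.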
